A study of Mus musculus with 469 samples.

Results

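Protocadherins are the largest group of cadherin-like adhesion proteins, and 71 entries whose symbol starts with Pcdh were taken from the 23281 gene entries used in single-cell libraries of mouse olfactory epithelium. Of these, 59 belong to the gene clusters: 15 alpha entries (one of them Pcdha4-g), 22 beta entries and 22 gamma entries. The other 12 are non-clustered: Pcdh1, Pcdh7, Pcdh8, Pcdh9, Pcdh10, Pcdh11x, Pcdh12, Pcdh15, Pcdh17, Pcdh18, Pcdh19 and Pcdh20. Membership rested on the symbol alone and used no measured value.

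Each clustered gene has its own promoter and a large variable exon that codes for the extracellular part. The variable exons of the alpha and gamma clusters are spliced to constant exons that all members of the cluster share, while each beta gene stands alone. A neuron switches on a few of these promoters, largely at random, together with C-type genes that many neurons use, and the proteins bind only identical partners, so that the combination marks a neuron as itself. In olfactory sensory neurons this diversity is needed for axons to spread and sort in the olfactory bulb. The non-clustered members are single genes with their own patterns, among them the delta subgroup of the brain, and Pcdh10 is known for its patchy expression among olfactory sensory neurons.

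The libraries were made on the Fluidigm C1, which captures single cells on a chip, from polyadenylated RNA of mice 8 weeks old. There were 3 sorts of Neurog1-eGFP cells, a reporter of neuronal progenitors, from strain FVB Neurog1-eGFP: uninjured, and 5 and 14 days after bulbectomy, the removal of the olfactory bulb that kills the neurons projecting to it. There were 2 sorts of OMP-eGFP cells, a reporter of mature sensory neurons, from strain B6 OMP-eGFP: 14 days after bulbectomy, and after transplantation into a host (called engrafted). The reference was wildtype B6;129SF1/J (F1) epithelium, uninjured and unsorted, in runs 1 and 2. The filter on genes and summed signal per cell kept 69.9% of the libraries as cells, namely 46 uninjured, 48 at 5 days and 25 at 14 days for Neurog1, 42 OMP cells at 14 days, 29 engrafted OMP cells, and 68 and 70 reference cells of runs 1 and 2.

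Since the animals behind the cells are not given, a group is 1 sample here. No test between groups was possible, and intervals cover counting error over cells only. Strain and sort cannot be told apart. Median depth per group ran from 501827 recovered fragments in engrafted cells to 1347936.5 in OMP cells at 14 days. Median genes per cell ran from 2405.5 in the reference to 3355.5 in OMP cells at 14 days. The part of this in the shares and numbers of members was not tested. Neurog1 was found in 50%, 37.5% and 48% of the Neurog1 sorts and in 0 of 42 and 0 of 29 OMP cells, and Omp in 97.6% of OMP cells at 14 days and 75.9% of engrafted cells. Omp was also found in 58.7% of the uninjured Neurog1 cells. In the reference, Omp was found in 89.9% of cells and Cyp2g1, a marker of sustentacular cells (the supporting cells of the epithelium), in 75.4%, so transcripts of both types were present in most libraries, and the part of this overlap in the member shares was not tested. A gene was called found at a CPM of 10 or more (CPM is a gene's share of a cell's summed signal, times 1000000). This stood for about 5.04 fragments at the median reference depth and 13.5 at the median depth of OMP cells at 14 days. Kept cells ran from 13369 to 2186038 fragments, and in those under 100000 fragments 1 fragment was enough.

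Most cells held a few clustered protocadherins and not the whole set. At least 1 clustered member was found in 41 of 46 uninjured Neurog1 cells (89.1%, exact Clopper-Pearson 95% interval 76.4 to 96.4), in 95.8% at 5 days (85.7 to 99.5) and in 80% at 14 days (59.3 to 93.2). The share was 92.9% in OMP cells at 14 days (80.5 to 98.5), 86.2% in engrafted cells (68.3 to 96.1) and 80.4% in reference cells (72.8 to 86.7). All 6 intervals overlapped. The number of clustered members per cell was 2.13 ± 1.68 (SD, n = 46 cells) in uninjured Neurog1 cells, 2.69 ± 1.57 (n = 48) at 5 days, 2.40 ± 1.85 (n = 25) at 14 days, 3.14 ± 1.92 (n = 42) in OMP cells and 2.38 ± 1.74 (n = 29) in engrafted cells, so the groups differed by less than the spread between cells.

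In the reference, 9 libraries of run 1 stood far apart. They held 12256 to 16307 genes each, beside at most 6157 in any other library. Each held 29 to 41 clustered members (median 36), while no other library held more than 8 and their median was 2. They also held 9 to 11 of the 12 non-clustered members, beside at most 6 elsewhere. The median summed CPM in these 9 was 331.1 for alpha, 455.1 for beta and 431.8 for gamma entries, beside 22.4, 1.21 and 0 in the other reference libraries, whose highest libraries reached 6157, 4260 and 1342. The signal was also spread over more members, since the leading alpha entry held a median of 20.1% of the alpha CPM in these libraries and 94.3% in the other reference cells. The genes leading them included Hba-a1 of red blood cells, S100a9 of neutrophils and the odorant-binding protein genes Obp1a and Obp2a. Whether they hold more than 1 cell was not tested. Without them the reference held 1.90 ± 1.68 clustered members per cell (SD over its other cells), and 79.1% of its cells had at least 1.

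**Figure D1:**
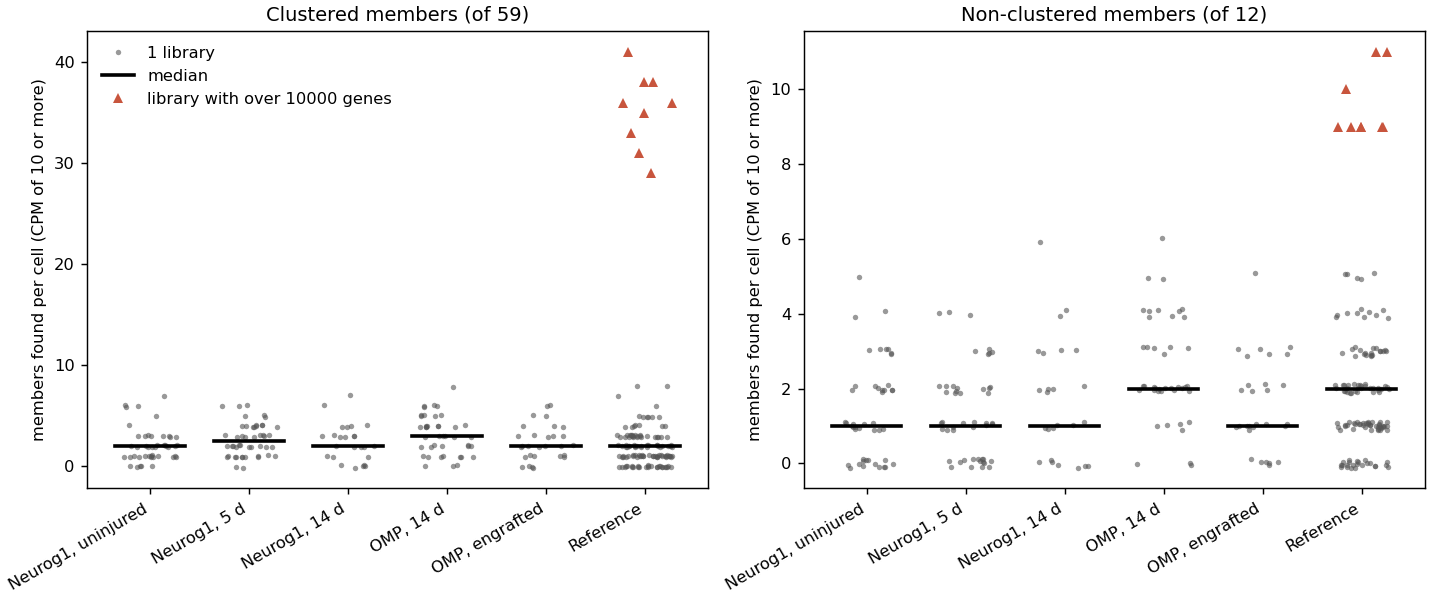
Number of clustered (left, of 59) and non-clustered (right, of 12) protocadherin entries that reached a CPM of 10 in each library, by group. Each point is 1 library, black lines are group medians and red triangles are the 9 reference libraries with over 10000 genes, which lie at 29 to 41 clustered members while all other libraries lie at 8 or fewer.

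Cells of the same group differed in which clustered members they held. Over all libraries without those 9, 85.6% had at least 1 clustered member, and 63.7% of these cells had a combination seen in no other cell. All 39 OMP cells at 14 days with a clustered member had a combination that no other cell of that group had. The commonest combination over all groups was Pcdha5 alone, in 26 cells. Cells with members of all 3 clusters made up 19.6% of uninjured Neurog1 cells, 20.8% at 5 days, 32% at 14 days, 40.5% of OMP cells at 14 days, 17.2% of engrafted cells and 10.1% of reference cells without the 9 libraries.

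Within a cluster, usually 1 entry held nearly all of the signal of a cell. Among cells with signal from the cluster, the leading alpha entry held a median of 97.5% of the alpha CPM in uninjured Neurog1 cells, 94.7% at 5 days and 96.04% in OMP cells at 14 days. The leading beta entry held 99.02%, 99.2% and 98.7% in the same groups. The leading gamma entry held a median above 99% in each of the 6 groups. This was not particular to the gene clusters. In the reference without the 9 libraries, the leading non-clustered entry held a median of 93.2% of the non-clustered CPM. The leading alpha entry held 94.3% of the alpha CPM in the same cells. Of the cells with a gamma entry, 92.3% in the uninjured Neurog1 sort and 69.6% in OMP cells at 14 days had exactly 1. At least 2 alpha entries were found in 39.6% of Neurog1 cells at 5 days and in 40.5% of OMP cells at 14 days, beside 15.2% of uninjured Neurog1 cells.

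**Figure D2:**
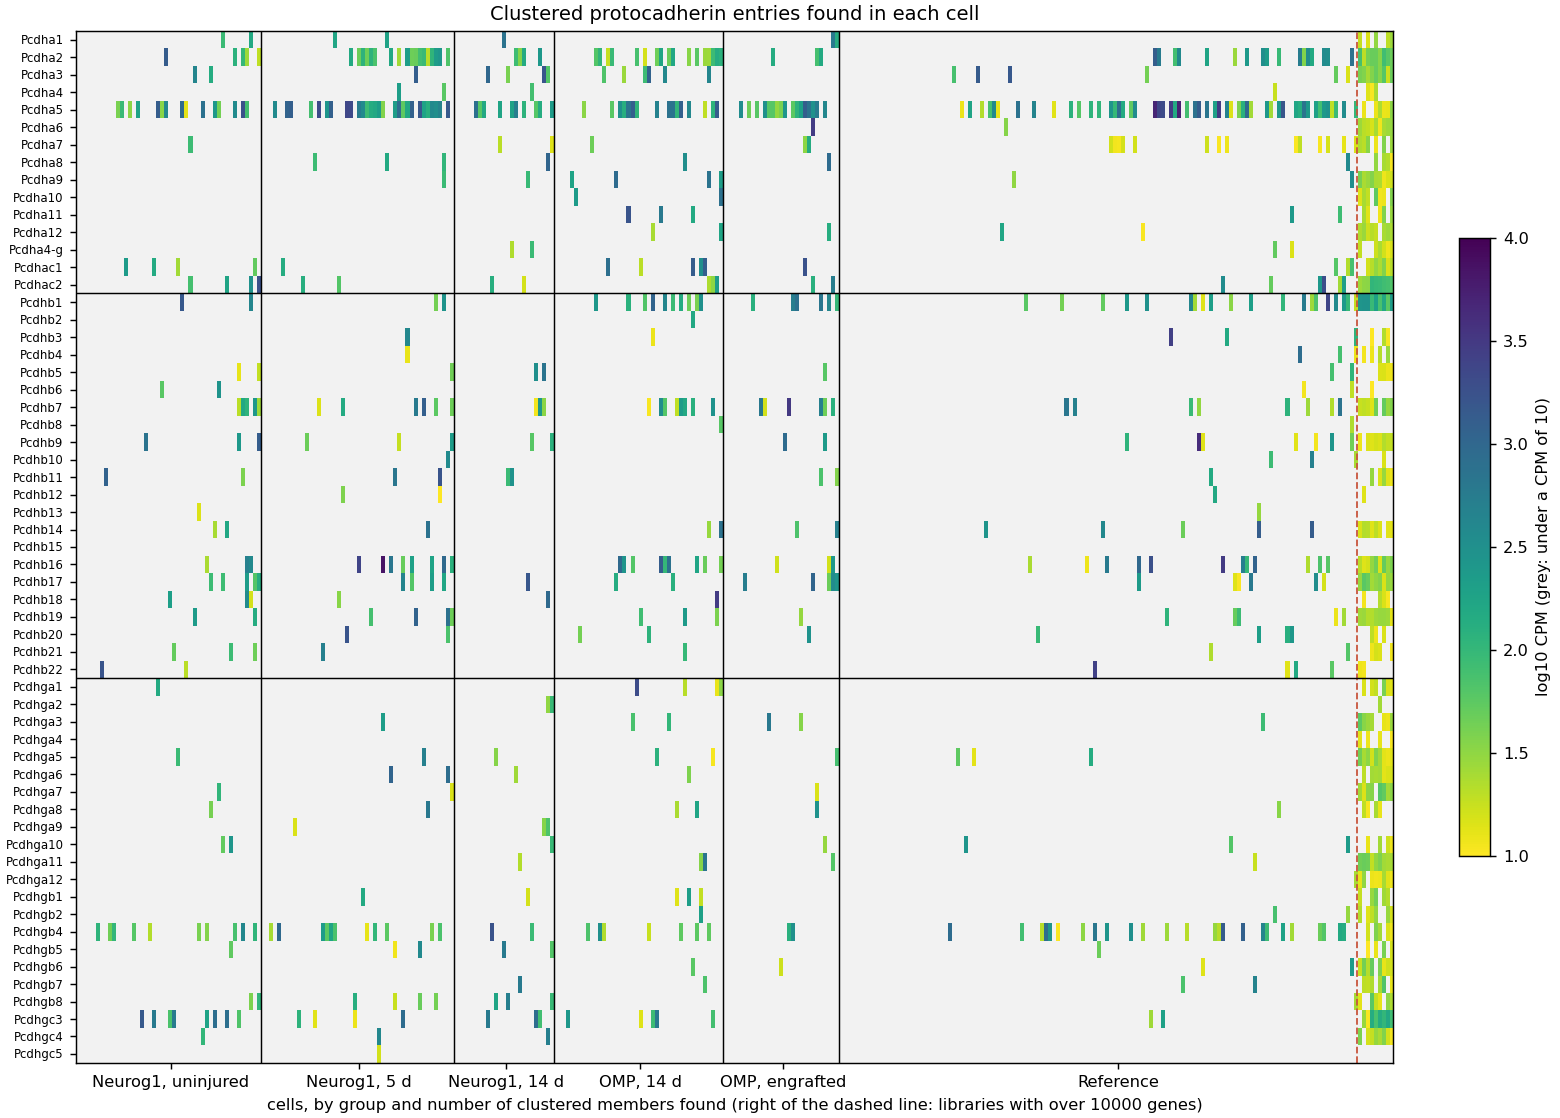
The 59 clustered protocadherin entries (rows; alpha, beta and gamma blocks) in all kept cells (columns, ordered within each group by the number of clustered members found). Colour gives log10 CPM and grey a CPM under 10; Pcdha5, Pcdha2, Pcdhb1 and Pcdhgb4 recur across groups, other entries are scattered, and the 9 libraries right of the dashed line hold most entries at low CPM.

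The members were not used equally. In the alpha cluster Pcdha5 led in 59.2% of the cells with alpha signal (without the 9 libraries), followed by Pcdha2 in 19 cells and Pcdha3 in 14. Of the C-type genes, which stand last in their clusters, Pcdhac1 led in 11 and Pcdhac2 in 10. In the gamma cluster Pcdhgb4 led in 55 cells (39.3%) and the C-type gene Pcdhgc3 in 21. The beta cluster was more even, with Pcdhb1 leading in 29 cells (18.8%), Pcdhb16 in 25, Pcdhb7 in 17 and Pcdhb17 in 13. Of the 71 entries, 70 were found in at least 1 kept cell. Pcdhb15 was found in none, and Pcdhga4 and Pcdh18 in none outside the 9 libraries.

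The alpha and gamma entries carry a limit of measurement that the beta and non-clustered ones do not. A value that counts whole reads is a whole multiple of the value of 1 read in that cell, within a tolerance of 0.02. All 528 beta values and all 794 non-clustered values above 0 were whole. Of the alpha and gamma values worth at least 0.001 of a read, 33.2% of 953 and 42.2% of 540 were whole (all beta and non-clustered values were above that limit). Summed over the cluster, 95.8% of the alpha sums and 94.7% of the gamma sums of a cell were whole again. The table had therefore split reads among the entries of these 2 clusters, which share their constant exons, and 81.1% of all alpha values above 0 were worth less than 1 read. The most frequent entry of either cluster was also among the shortest by the ratio of signal to FPKM, a relative length. Pcdha5 ranked 3 of 15 alpha entries at 1.90 (the longest reached 2.03), and Pcdhgb4 was the lowest gamma entry at 1.62 (up to 1.94). The next most frequent lay mid-range, with Pcdha2 ranked 7 of 15 at 1.98 and Pcdhgc3 ranked 13 of 22 at 1.75. In the beta cluster, where no reads were split, the frequent entries lay at ratios from 0.85 (Pcdhb1) to 1.95 (Pcdhb16). The part of read splitting in the frequency of Pcdha5 and Pcdhgb4 was not tested, so which alpha or gamma entry a cell used is less certain than the sum over its cluster.

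**Figure D3:**
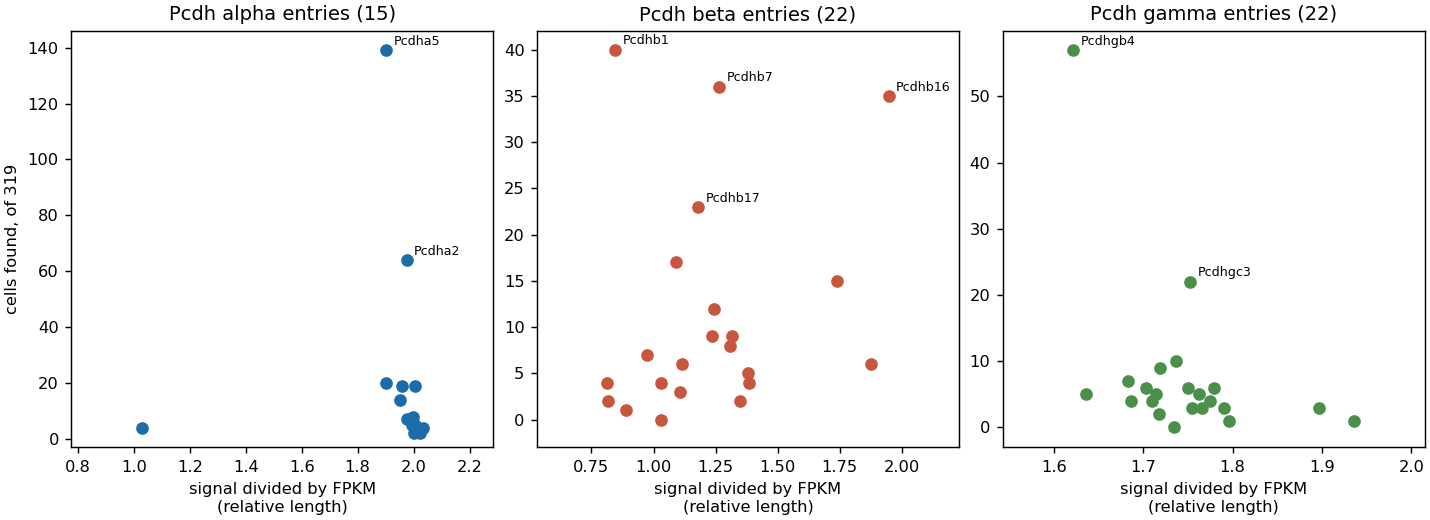
Number of cells, the 9 libraries left out, in which each clustered entry reached a CPM of 10, against its relative length, the ratio of its signal to its FPKM, for the alpha, beta and gamma clusters. Pcdha5 (43.6% of cells) and Pcdhgb4 (17.9%) lie at or near the short end of their clusters, while the frequent beta entries Pcdhb1, Pcdhb7 and Pcdhb16 are spread along the axis.

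Alpha entries were found in more cells of the OMP sort at 14 days than of the uninjured Neurog1 sort. At least 1 alpha entry was found in 56.5% of uninjured Neurog1 cells (41.1 to 71.1), 77.1% at 5 days (62.7 to 88), 76% at 14 days (54.9 to 90.6), 85.7% of OMP cells at 14 days (71.5 to 94.6), 72.4% of engrafted cells (52.8 to 87.3) and 57.2% of reference cells (48.5 to 65.6). The interval of the OMP cells lay above those of the uninjured Neurog1 cells and of the reference. With cells under 100000 fragments left out and the rest thinned, the interval against the uninjured Neurog1 cells overlapped (42.2 to 72.3 beside 71.5 to 94.6). That against the reference did not (50.8 to 67.9). The count of uninjured cells with an alpha entry was 26 before and after, of 46 and then 45 cells. At a CPM of 5 the interval against the uninjured cells overlapped too (28 of 46, 45.4 to 74.9). At a CPM of 50 it did not (28.9 to 58.9 beside 60.5 to 87.9). The summed alpha CPM ran from 0 to 1899 (median 36.3) in uninjured Neurog1 cells, from 0 to 2344 (median 220) at 5 days, from 0 to 1628 (median 161.02) at 14 days, from 0 to 2371 (median 230) in OMP cells at 14 days, from 0 to 3365 (median 117.9) in engrafted cells and from 0 to 6157 (median 33.3) in the reference. Every group spanned the range from 0 to over 1500, so the groups overlapped.

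Pcdha5 was the most frequent clustered member in each group but OMP cells at 14 days, where Pcdha2 was found in 40.5%. It was found in 32.6% of uninjured Neurog1 cells, 58.3% at 5 days, 40% at 14 days, 38.1% of OMP cells at 14 days, 58.6% of engrafted cells and 42.8% of reference cells, and all intervals overlapped. Pcdha2 was found in 5 of 46 uninjured Neurog1 cells (10.9%, 3.62 to 23.6) and in 18 of 48 at 5 days (37.5%, 24 to 52.6). Those intervals did not overlap at a CPM of 10, but they did after thinning (6 of 45 cells beside 18 of 48) and at a CPM of 50 (3 of 46 beside 12 of 48). The cells also differed in kind: of the 18 cells at 5 days, 14 were among the 23 cells of an immature-like cell cluster, which held 7 uninjured cells (1 with Pcdha2), and none of the 21 uninjured cells in the cluster with precursor markers had Pcdha2. The mean CPM was nearly equal, at 39.5 at 5 days and 35.3 uninjured, since 1 uninjured cell at 1353 CPM held 83.3% of the group's sum. Pcdha2 was seldom the leading alpha entry of a cell. At 5 days it led in 2 of 37 cells with alpha signal and Pcdha5 in 27, and in OMP cells at 14 days it led in 4 of 36 and Pcdha5 in 13. The part of read splitting in the shares with Pcdha2 was not tested. Of the other alpha entries, Pcdha3 ranged over the groups from 0 to 16% of cells, Pcdha7 from 0 to 14.5%, Pcdhac1 from 0 to 11.9% and Pcdhac2 from 4.17 to 10.9%. The other 9 alpha entries were under 10% in each group.

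Beta entries were found in 50% of cells in the uninjured Neurog1 sort and again at 5 days, in 36% at 14 days, in 64.3% of OMP cells at 14 days, in 58.6% of engrafted cells and in 45.7% of reference cells, with overlapping intervals. Pcdhb1 was the most frequent beta entry. It was found in 4.35% of uninjured Neurog1 cells, 4.17% at 5 days and 0 of 25 at 14 days (a count of 0, taken as at most 3 cells, allows up to 12%, and the exact interval reaches 13.7%), beside 23.8% of OMP cells at 14 days, 20.7% of engrafted cells and 21.01% of reference cells, of which 9 were the 9 libraries (15.5% without them). Its intervals overlapped in each of the 7 pairs of groups compared further on. In OMP cells at 14 days its level ran from 0 to 1080 CPM with a median of 0. At 14 days Pcdhb16 was found in 21.4% of the OMP sort and in 0 of 25 Neurog1 cells, and its mean of 238.9 CPM in Neurog1 cells at 5 days owed 60.3% to 1 cell. Pcdhb7 ranged from 10.9% to 20.7% of cells over the groups, and Pcdhb9, Pcdhb17 and Pcdhb19 lay between 0 and 17.2%.

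Gamma entries were the least frequent outside the Neurog1 sorts. At least 1 was found in 56.5%, 56.2% and 56% of Neurog1 cells (uninjured, 5 and 14 days), in 54.8% of OMP cells at 14 days (38.7 to 70.2), in 31.03% of engrafted cells (15.3 to 50.8) and in 36.2% of reference cells (28.2 to 44.8). Pcdhgb4 was found in 6.90 to 22.9% of cells. Pcdhgc3, a C-type gene that is needed for neuronal branching in the cortex, was found in 17.4% of uninjured Neurog1 cells, 8.33% at 5 days and 12% at 14 days, in 11.9% of OMP cells at 14 days and in 0 of 29 engrafted cells (a count of 0 allows up to 10.3%, and the exact interval reaches 11.9%). In the reference it was found in 10 cells, of which 8 were among the 9 libraries, so that 1.55% remained without them. Pcdhgb8 lay between 0 and 12%.

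Among the non-clustered members, Pcdh17 was the most frequent and the delta members Pcdh7, Pcdh9, Pcdh19 and Pcdh10 followed. At least 1 non-clustered member was found in 69.6% of uninjured Neurog1 cells (54.2 to 82.3), 68.8% at 5 days (53.7 to 81.3), 72% at 14 days (50.6 to 87.9), 92.9% of OMP cells at 14 days (80.5 to 98.5), 79.3% of engrafted cells (60.3 to 92) and 83.3% of reference cells (76 to 89.1). Those intervals overlapped. The number per cell was highest in OMP cells at 14 days, at 2.50 ± 1.38 (SD, n = 42 cells), beside 1.33 to 1.68 in the Neurog1 sorts, 1.55 in engrafted cells and 2.26 ± 2.33 in the reference. Reference run 1 with the 9 libraries stood at 2.68, above the OMP cells, and the reference without them at 1.75. OMP cells at 14 days also had the highest median of genes per cell, whose part in this number was not tested. The groups differed by less than the spread between cells.

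Pcdh17 links adhesion to the actin-regulating WAVE complex and organises synapses. It was found in 39.1% of uninjured Neurog1 cells (25.1 to 54.6), 39.6% at 5 days, 44% at 14 days, 64.3% of OMP cells at 14 days (48 to 78.4), 55.2% of engrafted cells and 55.1% of reference cells. Its median level was 1.36 CPM in uninjured Neurog1 cells and 176.3 CPM in OMP cells at 14 days, with a highest cell of 2379 and 2707 CPM. The groups overlapped over nearly the whole range.

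Pcdh7, Pcdh9, Pcdh1 and Pcdh11x form the subgroup with a longer extracellular part. Pcdh7 was found in 23.9%, 31.2% and 36% of the Neurog1 sorts, 23.8% of OMP cells at 14 days, 20.7% of engrafted cells and 43.5% of reference cells. Its highest mean, 672 CPM in engrafted cells, came from few cells: of 29 cells 6 had it, and their median was 2607 CPM. Pcdh9 was found in 37.0% of uninjured Neurog1 cells, 16.7% at 5 days, 28% at 14 days, 45.2% of OMP cells at 14 days, 17.2% of engrafted cells and 30.4% of reference cells. Pcdh1, known from epithelial adhesion in the airway, ranged from 3.45 to 16%, but in the reference 9 of its 10 cells were among the 9 libraries. Pcdh11x ranged from 4 to 14.6%.

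Of the remaining delta members, Pcdh10 and Pcdh8 differed most between groups. Pcdh10 was found in 1 of 46 uninjured Neurog1 cells (2.17%, 0.055 to 11.5), 4.17% at 5 days, 12% at 14 days, 28.6% of OMP cells at 14 days (15.7 to 44.6), 13.8% of engrafted cells and 24.6% of reference cells (17.7 to 32.7). The intervals of the uninjured Neurog1 sort and the reference did not overlap, and without the 9 libraries the reference still stood at 20.2% (13.6 to 28.1). At a CPM of 50 they did overlap, with the 9 libraries (8.50 to 20.7 in the reference) and without them (9.11 to 22.04). Thinned to 100000 fragments, the shares were 4.44% (0.543 to 15.1) and 25.0% (18 to 33.1), and without the 9 libraries the intervals then overlapped (13.2 to 27.7 in the reference). Pcdh19, the X-linked gene of an epilepsy limited largely to girls, was found in 12 to 16.7% of the Neurog1 sorts, 28.6% of OMP cells at 14 days, 31.03% of engrafted cells and 22.5% of reference cells, with overlapping intervals.

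Pcdh8 is induced by neuronal activity and draws N-cadherin from the synapse. Of the 42 OMP cells at 14 days 16 held it (38.1%, 23.6 to 54.4). It was found in 8.70% of uninjured Neurog1 cells, 2.08% at 5 days, 16% at 14 days, 6.90% of engrafted cells (0.846 to 22.8) and 14.5% of reference cells. The level in OMP cells at 14 days ran from 0 to 786 CPM with a mean of 106.7, beside 0 to 95.4 CPM and a mean of 6.47 in engrafted cells. Of the 20 reference cells with Pcdh8, 9 were the 9 libraries, and 8.53% remained without them. Of the 16 OMP cells, 10 lay among the 25 cells of cell cluster 11, 4 in cluster 6 and 2 in cluster 4. Pcdh12, Pcdh15, Pcdh18 and Pcdh20 were rare: Pcdh15, part of the tip link of hair cells, was found in 14 reference cells, of which 9 were the 9 libraries, and in 1 cell of all sorted groups, while Pcdh12, Pcdh18 and Pcdh20 were found in 3 to 4 reference cells and in no sorted cell.

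**Figure D4:**
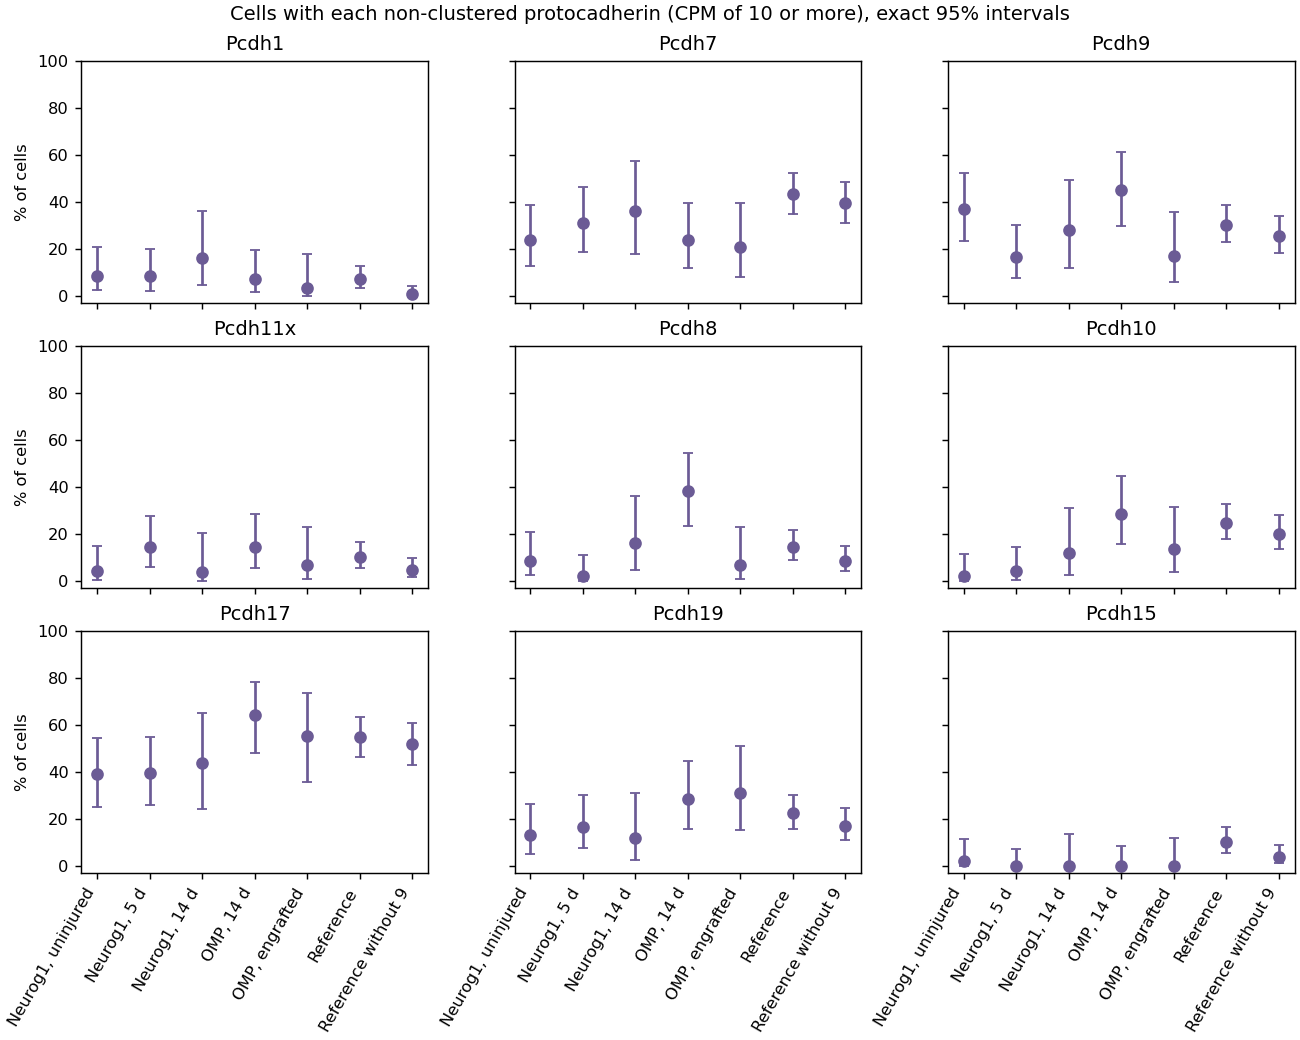
Percent of cells with each of the 9 non-clustered members that reached 10% in at least 1 group, with exact Clopper-Pearson 95% intervals; the last position is the reference without the 9 libraries with over 10000 genes. Pcdh17 is highest in each group, Pcdh8 stands out in OMP cells at 14 days (38.1%) and Pcdh10 is low in the uninjured Neurog1 sort (2.17%).

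Mean levels were compared in 7 pairs of groups, which share groups and are not independent of each other. A member counted as apart at a log2 ratio of mean CPM + 1 of 1 or more in size, which is 2-fold, among entries whose mean reached 5 CPM in at least 1 of the groups, and ratios of low entries are understated. Each count is set beside the share of all entries called the same way, and beside the count of members whose found shares had intervals that did not overlap.

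The uninjured Neurog1 sort over the reference asks how progenitor-enriched cells differ from the whole epithelium. The non-clustered members were lower in the progenitors in 7 of 11 tested and higher in 1: Pcdh10 had means of 4.61 and 47.97 CPM (log2 ratio -3.13), Pcdh19 of 30.9 and 105.4 (-1.74), Pcdh7 of 86.1 and 202.6 (-1.22) and Pcdh17 of 159.2 and 364.1 (-1.19), while Pcdh1 was higher at 19.7 and 2.27 (2.66). Of the 11 non-clustered members tested, 2 were at 0 in 1 of the groups and passed the filter on low values only through the other. The median of the non-clustered members was -1.22, or -0.72 with members at 0 in a group set to a floor of 3 fragments per cell. Pcdhgc3 was the clustered entry highest in the progenitors relative to the reference among those found in 10% of cells, at 99.4 and 6.97 CPM (3.66). In all, 8 of 35 members tested were higher (22.9%, beside 22.4% of all entries) and 14 lower (40%, beside 32.6%), with a median of -0.46 (-0.16 over all entries), or -0.28 with members at 0 in a group set to a floor of 3 fragments per cell. The interval of 1 member, Pcdh10, lay apart (2.86%, beside 9.8% of all entries). All 10 sustentacular markers were lower in the progenitor sort, where their summed level ran from 0 to 689.6 CPM (median 0) beside 4.38 to 128360 CPM (median 7867) in the reference, and Aldh1a7 and Lypd2 were at 0. Of 12 markers of mature neurons tested 9 were lower, as were 5 of 6 of Bowman's gland and all 6 immune markers. The part of these cell types in the member differences was not tested.

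At 5 days after bulbectomy the Neurog1 sort had higher means of several clustered members than the uninjured sort. Of 32 clustered entries tested 17 were higher and 9 lower, among them Pcdha5 at 403.3 beside 137.2 CPM and Pcdhb16 at 238.9 beside 19.3 CPM (log2 ratio 3.57). Pcdh17 was higher too, at 357.4 beside 159.2 CPM (1.16), and Pcdh9 lower, at 68.6 beside 219.7 CPM (-1.66). In all, 18 of 39 members were higher (46.2%, beside 20.9% of all entries) and 12 lower (30.8%, beside 26.3%), with a median of 0.90 (-0.13 over all entries). Without the cell with the highest value of each entry in each group, 8 were higher and 7 lower of 20 tested. The interval of 1 member, Pcdha2, lay apart (2.56%, beside 0.438% of all entries). Of 12 markers of mature neurons tested 10 were lower at 5 days and none higher, and their summed level ran from 0 to 9242 CPM (median 958.4) beside 12.1 to 43243 CPM (median 1077) in uninjured cells. All 7 sustentacular markers tested were higher at 5 days, with a summed level from 0 to 56234 CPM (median 9.23), while all 3 microvillar and all 3 Bowman's gland markers tested were lower. Their part in the member differences was not tested.

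At 14 days the Neurog1 sort differed from the uninjured sort in both directions. Pcdh17 was higher, at 486 beside 159.2 CPM (log2 ratio 1.60), as was Pcdh7 at 217.6 beside 86.1 CPM (1.33), and Pcdh9 was lower at 102.4 beside 219.7 CPM (-1.09). Of 33 members tested 14 were higher (42.4%, beside 22% of all entries) and 10 lower (30.3%, beside 29.9%), with a median of -0.09 (-0.17 over all entries). No member had intervals apart (0.29% of all entries did). Against 5 days, 14 of 38 members were higher (36.8%, beside 23.8% of all entries) and 16 lower (42.1%, beside 27.1%), again with no intervals apart (0.163% of all entries). Of 12 markers of mature neurons tested 8 were lower at 14 days than in uninjured cells and none higher, and 3 of 5 markers of globose basal cells, the dividing progenitors, were higher. All 7 sustentacular markers tested had lower means at 14 days than at 5 days (median -4.49). The summed sustentacular level ran from 0 to 1211 CPM (median 9.93) at 14 days and from 0 to 56234 CPM (median 9.23) at 5 days. The part of these markers in the member differences was not tested. Among the 14 beta entries tested there, 10 were lower at 14 days and 3 higher, and Pcdhb16 stood at 0.124 beside 238.9 CPM.

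Engrafted OMP cells were set against OMP cells taken from the epithelium 14 days after bulbectomy. Pcdh8 was lower in the engrafted cells, at 6.47 beside 106.7 CPM (log2 ratio -3.85), and so was Pcdh11x, at 3.43 beside 180.1 CPM (-5.35), of which 1 cell held 60.02%. Pcdh7 was higher, at 672 beside 53.5 CPM (3.63). In all, 11 of 36 members were higher (30.6%, beside 21.7% of all entries) and 15 lower (41.7%, beside 35%), with a median of -0.42 (-0.34 over all entries). The intervals of Pcdh8 lay apart, as 1 of 36 (2.78%, beside 1.48% of all entries). With cells under 100000 fragments left out and the rest thinned to that number, the intervals overlapped (23.6 to 54.4 beside 0.946 to 25.1). The cells found did not change, at 16 of 42 OMP cells and 2 engrafted cells, but 26 engrafted cells remained of 29. At a CPM of 50 the intervals overlapped too (28.6% beside 6.90%). Of 11 markers of immature neurons 5 were lower in the engrafted cells and 1 higher, with a summed level from 0 to 8874 CPM (median 1355) beside 245.7 to 16552 CPM (median 5289), none of them at 0 in a group. All 4 markers of Bowman's gland tested (median 6.498) and all 4 of microvillar cells (median 3.54) were higher in the engrafted cells, as was the pericyte gene Rgs5 (14.26). Their part in the difference of Pcdh8 was not tested.

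At 14 days after bulbectomy, OMP cells had more Pcdh10 than Neurog1 cells, at 84.97 beside 18.8 CPM (log2 ratio 2.12), more Pcdh19 at 114.6 beside 24.4 CPM (2.19), and less Pcdh7 at 53.5 beside 217.6 CPM (-2.0). Pcdhb1 stood at 62.3 beside 0.518 CPM (5.38). Of 37 members tested 16 were higher in OMP cells (43.2%, beside 32.4% of all entries) and 15 lower (40.5%, beside 28.6%), and no member had intervals apart (4.03% of all entries did). All 12 markers of mature neurons and all 8 sustentacular markers tested (median 4.50) had higher means in the OMP cells. The summed sustentacular level ran from 0 to 77329 CPM (median 0) in OMP cells and from 0 to 1211 CPM (median 9.93) in Neurog1 cells. Cyp2g1 was found in 9.52% and 8% of these cells. Of 11 immature markers 7 were lower in the OMP cells, as were all 5 of globose basal cells (median -6.09). Strain, sort and depth differed too, so their parts cannot be told apart.

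OMP cells at 14 days were also set against the 51 reference cells in the mature-like cell clusters. The OMP cells were not chosen by cluster. Of these 42, 25 lay in immature-like cluster 11, 12 in unnamed cluster 6, and 2 and 1 in mature-like clusters 4 and 5. Pcdh8 was found in 38.1% beside 3.92% (0.478 to 13.5), at means of 106.7 and 1.59 CPM (log2 ratio 5.38), and these intervals stayed apart at a CPM of 5 and of 50 and after thinning. Pcdh17 was higher at 446.5 beside 203.4 CPM (1.13). Of 35 members 19 were higher (54.3%, beside 33.3% of all entries) and 9 lower (25.7%, beside 26.1%), with a median of 1.13 (0.20 over all entries), or 1.10 with members at 0 in a group set to a floor of 3 fragments per cell. The 1 member with intervals apart, Pcdh8, was 2.86% of those tested, beside 10% of all entries. Of 11 markers of immature neurons, 8 were higher in the OMP cells at 14 days and 1 lower, with a median of 2.37, and 7 of 10 sustentacular and all 5 Bowman's gland markers tested were lower. Of 12 markers of mature neurons tested 4 were lower in the OMP cells, Omp among them, and 1 was higher. The part of these markers in the difference of Pcdh8 was not tested. Strain, sort and the choice by cluster differed too, so their parts cannot be told apart.

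The cells were grouped into 12 clusters on other genes, with the protocadherins left out. Cluster 8 (47 cells, 44 of them Neurog1-sorted) had markers of neuronal precursors but was left unnamed, since a marker of another type was among its leading genes. Clusters 12 and 11 were immature-like, the latter on 3 markers only (25 of its 40 cells were OMP cells at 14 days). Clusters 4 and 5 were like mature neurons, and clusters 1, 2, 3 and 10 carried sustentacular markers, of which only 1 and 2 could be named.

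Along the neuronal clusters, non-clustered members and alpha entries were found least often in cluster 8. At least 1 non-clustered member was found in 40.4% of its cells (26.4 to 55.7), beside 85.7% in cluster 12 (72.8 to 94.1), 100% in cluster 11 (91.2 to 100) and 78.3% in the mature-like clusters (66.7 to 87.3). Alpha entries were found in 46.8% (32.1 to 61.9), 85.7% (72.8 to 94.1), 95% (83.1 to 99.4) and 68.1% (55.8 to 78.8) of the same clusters. Gamma entries had another order, at 48.9% (34.1 to 63.9), 65.3% (50.4 to 78.3), 60% (43.3 to 75.1) and 23.2% (13.9 to 34.9). Mature-like clusters 4 and 5 differed, with alpha entries in 82.9% and 52.9% (35.1 to 70.2) of their cells. The latter interval overlapped that of cluster 8. Cluster 7, with globose basal markers, held only 9 cells, of which 66.7% had an alpha entry and 77.8% a non-clustered member. Pcdhb1 was found in 0 of 47 and 0 of 49 cells of clusters 8 and 12, in 15 of 40 of cluster 11 (37.5%, 22.7 to 54.2) and in 24.6% of mature-like cells (15.1 to 36.5). Pcdhgc3 went the other way: as plotted by cell cluster it was found in clusters 8, 12 and 11 and in no mature-like cell. Pcdh9 and Pcdh19 were found in 4.26% and 2.13% of cluster 8 and in 52.5% and 35% of cluster 11.

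In the 63 reference cells that fell in the 4 clusters carrying sustentacular markers, clustered members were found in 77.8% (65.5 to 87.3) beside 84.3% (71.4 to 93) of the 51 mature-like reference cells. Beta entries were found in 30.2% beside 49.02% of these cells, gamma entries in 42.9% (30.5 to 56) beside 17.6% (8.40 to 30.9), and Pcdh17 in 68.3% (55.3 to 79.4) beside 39.2% (25.8 to 53.9). Of these, only the intervals of Pcdh17 lay apart. The spread among the 4 clusters was wide, since Pcdh17 was found in 17 of 17 cells of cluster 10 and in 27.3% of cluster 2, and beta entries in 10.7% of cluster 3 and 64.7% of cluster 10. Median depth was 0.436 of the cells' own group in mature-like cluster 5 and above 1.1 times in clusters 1, 2, 3 and 10.

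**Figure D5:**
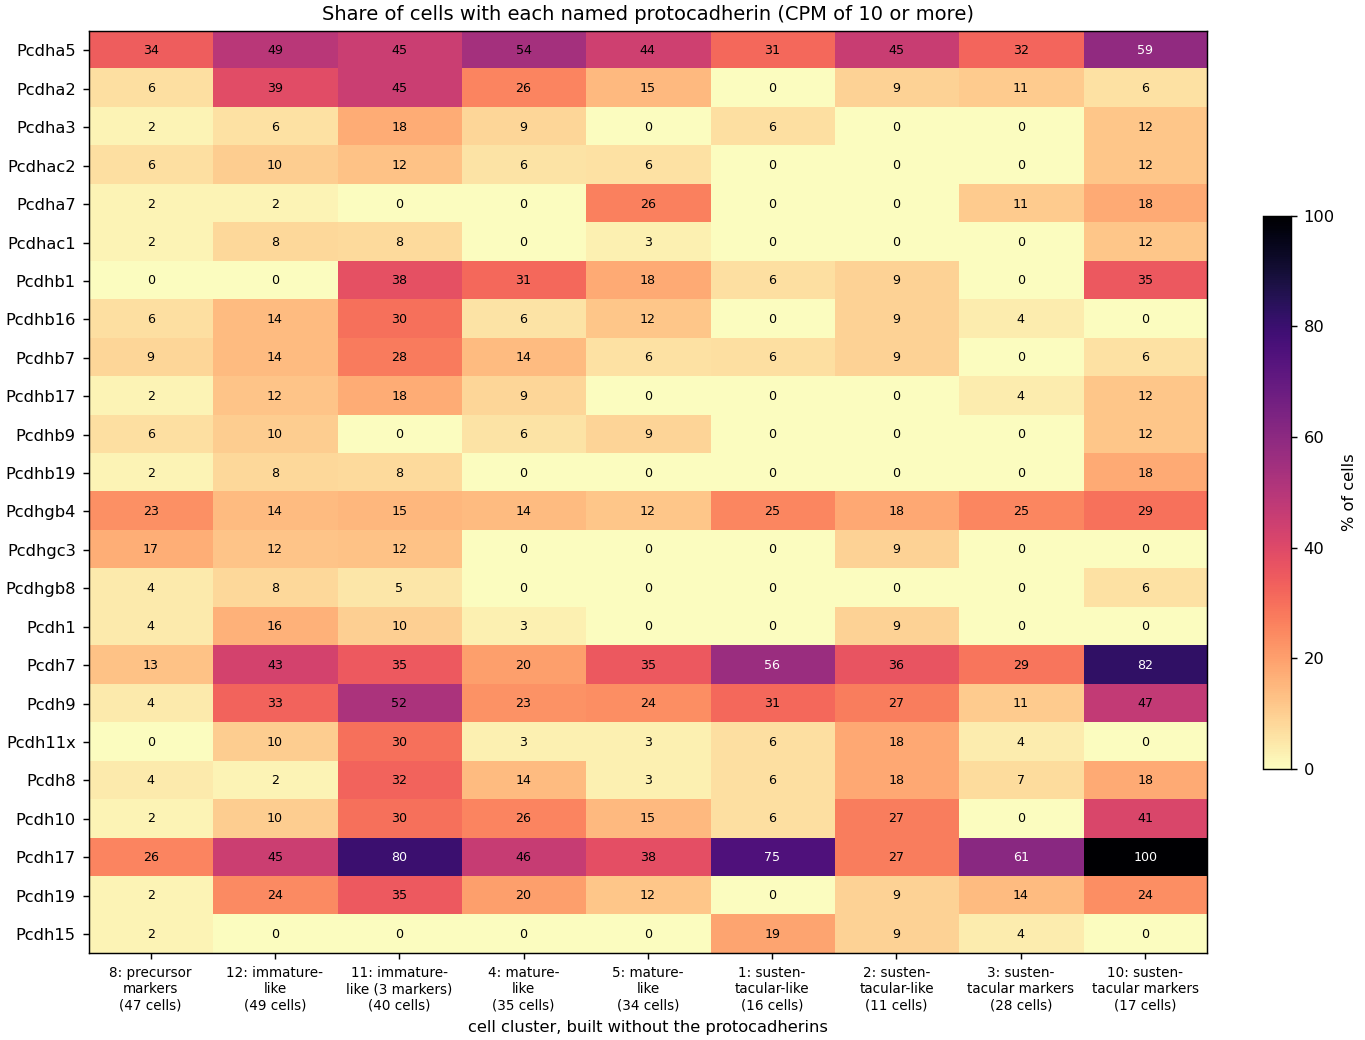
Percent of cells (numbers in the squares) with each of the 24 members that reached 10% in at least 1 group, in 9 of the 12 cell clusters, which were built without protocadherins. From left to right stand the cluster with precursor markers, the immature-like, the mature-like and the clusters with sustentacular markers; Pcdhb1 is at 0 in clusters 8 and 12, and Pcdh17 reaches 100 in cluster 10.

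Genes that regulate the clusters were measured in full, 23 of 23. CTCF and cohesin (Rad21, Smc1a, Smc3) join a chosen promoter to its enhancer, and Ctcf had means from 99.2 to 177.6 CPM over the 6 groups. Smchd1, a silencing protein of the clustered genes and the inactive X chromosome, had means of 2021, 1040 and 1575 CPM in the Neurog1 sorts, 197.7 in OMP cells at 14 days, 76.2 in engrafted cells and 184.99 in the reference. In the uninjured Neurog1 sort over the reference 7 of the 23 were higher and 3 lower (22.4% and 32.6% of all entries), with a median log2 ratio of 0.34 (-0.16 over all entries). The higher ones included Smchd1 and Lhx2, a homeodomain factor of sensory neurons. At 5 days over uninjured 1 of 22 tested was higher (Tet2) and 1 lower (Ehmt2), beside 20.9% and 26.3% of all entries. In OMP over Neurog1 cells at 14 days 3 were higher and 9 lower (32.4% and 28.6% of all entries), with a median of -0.42 (0.04 over all entries).

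Partners of the proteins were also measured in full, 23 of 23. They include Adam10, a protease that cuts protocadherins, the kinase genes Ptk2, Ptk2b and Fyn, and the WAVE complex genes Cyfip1, Cyfip2, Nckap1, Abi1, Abi2, Wasf1 and Brk1. In the uninjured Neurog1 sort over the reference 4 were higher and 1 lower, both under the shares of all entries (22.4% and 32.6%). At 5 days over uninjured 2 were higher (Adam10 and Ptk2b) and 5 lower (20.9% and 26.3% of all entries). At 14 days over uninjured 1 of 22 was higher and 4 lower (22% and 29.9%), and in engrafted cells over OMP cells at 14 days 3 were higher and 6 lower of 22 (21.7% and 35% of all entries). Cdh2, the N-cadherin gene, was among the latter, at 12.2 beside 137.2 CPM.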

How the data were processed

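The authors deposited 2 tables with a column per cell: signal, estimated fragments per gene that the authors scaled to near-equal totals, and FPKM values. Cufflinks 2.2.1 and Cuffnorm, the aligner STAR 2.5.2a and FastQC are named in the submitters' processing notes, with build mm9. Their roles and the annotation were not given in the sources used here. Of 23308 entries, 27 with names altered into dates were left out. CPM is the share of a cell's signal, and fragments were recovered from the value of 1 fragment in each cell (median 98.5% of values whole). Cells with 1000 or more genes at a scaled signal of 1 or more and a summed signal of 50000 or more were kept. Intervals are exact Clopper-Pearson (95%), and a count of 0 allows 3 cells of n. Clusters used 2000 variable genes, 20 principal components and Ward linkage. No doublet caller and no test was run. The steps were tested on simulated data. The members and lists were chosen with earlier results of these data known, and named members are those found in 10% or more of the cells of a group. Genome coordinates and sequences were not used here. Python 3.11.15, pandas 2.3.3 and scipy 1.17.1 were used.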

Additional observations from a re-analysis of the deposited data

How the results depend on the processing

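Shares of cells were recomputed at other CPM limits, other filters on cells and equal depth, and counts of members apart under other pseudocounts, filters and tables. With at least 1 clustered member, 38 of 45 alternative shares stayed within the interval of the main share; with at least 1 non-clustered member, 40 of 45 did. At a CPM of 50 the clustered share was 76.1% in uninjured Neurog1 cells and 68.8% in the reference, and the non-clustered share of the reference was 73.9%. At a CPM of 1 the non-clustered share of engrafted cells was 93.1%. In cells with 2000 or more genes the clustered share was 100% at 5 days, in OMP cells at 14 days and in engrafted cells, and the non-clustered share of the reference was 93.4%. With no filter on cells the clustered share was 31.5% in engrafted cells and 65.1% in the reference, and the non-clustered share 32.6% and 73.4%. The share with 2 or more clustered members at a CPM of 1 was 87.5% at 5 days, 90.5% in OMP cells at 14 days and 75.4% in the reference, and at a CPM of 50 41.3% in the reference. Leaving out the 9 libraries for this last share was chosen after seeing the data and kept it within its interval.

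Of 53 alternative counts of members apart, 42 lay within 1.5 times the main count. A pseudocount of 10 gave 12 for uninjured Neurog1 over reference and 16 for 5 days over uninjured. No filter on low values gave 40 for the former. FPKM gave 11, 16 and, for engrafted over OMP cells at 14 days, 15. Without the highest cell of each entry the counts were 15 (5 days over uninjured), 17 (14 over 5 days), 16 (engrafted over OMP cells at 14 days), 19 (OMP over Neurog1 cells) and 17 (OMP over mature-like reference cells); fewer members then passed the filter on low values. In other cases the cause was not tested. Within groups, as a description, the Spearman correlation of clustered members per cell was 0.22 to 0.70 with the genes found and -0.12 to 0.38 with the recovered fragments, which are the depth. The value of 0.70 was that of OMP cells at 14 days. No paired analysis was possible because each group is 1 sample and no test was run.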
